A study of Homo sapiens with 3 samples.

Results

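The regions described here are the narrowest peaks inside protein-coding genes in an eCLIP of mouse PXR, which are at most 2 bases wider than the narrowest of the list, at 200 bases. They were selected on chromosomes 1 to 22 and X by 4 conditions on position and width. The peak centre lay in the span of 1 protein-coding gene and of no other gene, that gene was at least 5000 bases long, the centre lay over 1000 bases from both gene ends, and the width was within those 2 bases of 200. Of the 21031 peaks of the deposited list, 2169 met them, in 1741 genes. The 7802 broader peaks that met the conditions on position served as the comparison and are called wider inner peaks.

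All libraries came from LS174T, a line derived from a human adenocarcinoma of the colon, whose cells had carried a transfected, HA-tagged mouse Pxr for 24 h. The cells were crosslinked with 254 nm light at 400 mJ/cm2, and the lysates were treated with RNase I. The groups were 1 input and 2 replicates of the PXR precipitate, represented by 1 peak list. No source used here says which of those replicates it was called from, or whether the input was its control. Antibodies against PXR, HA and IgG are named, not which one each library had, and no untransfected cells are among the groups. Replicate error could therefore not be estimated, and read numbers and shares carry counting intervals only.

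PXR is a nuclear receptor that senses drugs and bile acids and, in liver and intestine, switches on genes for their metabolism and transport. In eCLIP, ultraviolet light joins a protein to the RNA it touches, and the RNA fragments that come down with the protein are sequenced. The peak caller MACS2 extends each read to a fixed length and keeps regions where the extended reads pile up above a background. A pile in which every read starts at 1 base is as wide as 1 extended read and flat, and the caller then places the summit in its middle.

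Sequence could be read only where a peak met a RefSeq start window, which runs from 250 bases before to 50 bases after a gene's start (build GRCh38.p14). Among the 1808 narrow peaks in genes whose strand is known from these windows, 35 overlapped a window, and 17 of them in a stretch of at least 162 bases. The 6 with the most reads are shown, because they show what kind of DNA lies under those peaks. They are given 5′ to 3′ on the strand of the peak, with each CpG dinucleotide in capitals.
SLC11A2: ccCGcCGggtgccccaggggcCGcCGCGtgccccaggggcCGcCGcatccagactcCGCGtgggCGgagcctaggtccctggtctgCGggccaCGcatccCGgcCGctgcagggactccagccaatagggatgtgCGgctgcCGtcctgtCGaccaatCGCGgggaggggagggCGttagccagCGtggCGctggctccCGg
TBL1XR1: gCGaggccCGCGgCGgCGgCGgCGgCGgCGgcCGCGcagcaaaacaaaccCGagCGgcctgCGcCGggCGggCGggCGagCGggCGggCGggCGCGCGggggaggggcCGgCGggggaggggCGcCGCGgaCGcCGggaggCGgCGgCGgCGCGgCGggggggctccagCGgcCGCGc
FUT1: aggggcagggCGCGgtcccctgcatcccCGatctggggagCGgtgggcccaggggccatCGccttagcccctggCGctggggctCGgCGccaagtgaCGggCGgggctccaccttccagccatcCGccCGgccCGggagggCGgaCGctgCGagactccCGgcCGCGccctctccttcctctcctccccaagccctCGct
RAI1: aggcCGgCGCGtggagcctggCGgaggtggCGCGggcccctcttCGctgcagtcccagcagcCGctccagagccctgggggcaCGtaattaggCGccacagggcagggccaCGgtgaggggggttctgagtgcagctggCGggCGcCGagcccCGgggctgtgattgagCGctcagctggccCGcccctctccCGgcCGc
SLC37A1: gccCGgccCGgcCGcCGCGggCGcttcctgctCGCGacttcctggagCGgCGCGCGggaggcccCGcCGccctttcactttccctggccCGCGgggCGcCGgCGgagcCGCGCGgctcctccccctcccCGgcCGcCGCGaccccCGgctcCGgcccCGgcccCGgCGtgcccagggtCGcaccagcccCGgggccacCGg
VPS29: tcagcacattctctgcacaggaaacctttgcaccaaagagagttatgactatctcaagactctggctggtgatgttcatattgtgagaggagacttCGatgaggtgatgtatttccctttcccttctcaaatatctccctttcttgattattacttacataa

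The SLC11A2 stretch, chr12:51026365-51026566 on the minus strand, is the whole peak and lies on the strand of its gene, which encodes an iron transporter. It was 75.7% G or C and held 23 CpG. The TBL1XR1 stretch, chr3:177197555-177197732 on the plus strand, lies opposite to its gene, which encodes a corepressor subunit, and was 89.9% G or C with 40 CpG. The FUT1 peak, chr19:48752645-48752844 on the minus strand, lies on the strand of its gene, a fucosyltransferase, and had 76.0% G or C and 20 CpG. The RAI1 peak, chr17:17722304-17722503 on the minus strand, lies opposite to RAI1 and in the start window of the uncharacterised gene LOC124903943, on that gene's strand, with 75% G or C and 19 CpG. The SLC37A1 peak, chr21:42513692-42513892 on the minus strand, lies opposite to its gene, a sugar-phosphate transporter, with 85.1% G or C and 34 CpG. The VPS29 stretch, chr12:110495953-110496114 on the minus strand, differs from these. It lies on the strand of VPS29, a retromer subunit, within a window of LOC124903015 on the other strand, and had 40.1% G or C and 1 CpG.

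Of the 17 stretches, 16 were richer in G and C than the median of all 35116 start windows, which was 59.0% over their bases 51 to 250, and 15 held more CpG than the windows' median of 9. The letters AGGTCA and AGTTCA, the half-sites that PXR dimers bind in DNA, were searched on both strands. AGGTCA was in 0 of the 17 stretches and AGTTCA in 1, in DGCR2. In all start windows, over 200 bases each, AGGTCA was in 9.83%, AGTTCA in 6.93% and either of them in 15.9%. The search describes these letters in these stretches only.

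The narrow peaks were mostly shallow. The number of reads under each summit, recovered from the authors' fold and p-value, ranged from 4 to 5396 with a median of 14 and quartiles of 10 and 21, against a median of 25 in the wider inner peaks. Of the 2169 peaks, 484 had under 10 reads and 4 had over 200. The authors' fold, the summit over its background with 1 read added to each, had a median of 5.21, against 5.61. Since the width chose the peaks and reads and fold come from the same peak call, these values are a description. By width, 1752 peaks had 200 bases, 241 had 1 base more and 176 had 2 more. The deepest of these last, just inside the limit, lay in SLC11A2 (161 reads), in GNG7, a G protein gamma subunit (99 reads), and in AGRN, the proteoglycan agrin (88 reads). Just outside it, among peaks 3 bases wider than 200, the deepest lay in CUX1, a homeobox factor (477 reads), in SYT1, a synaptic vesicle calcium sensor (141 reads), and in FCN3, a lectin (86 reads).

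The background of most peaks was taken as the number of reads on the same strand in the 10 kb around the summit. This reading was inferred from the solved values, since no setting of the peak call is named. It lets each peak be placed by how much of its surroundings it holds. In 80 narrow peaks (3.69%), called isolated here, the summit held over 50% of the reads of its 10 kb, against 1.23% of the wider inner peaks. In 121 (5.58%, against 0.295%), called thinly covered, the 10 kb held too few reads to set the background, which lay at the common level of the strand, equal to 14.3 reads per 10 kb on the plus and 11.8 on the minus strand. These had 4 to 13 reads. The other 1968 (90.7%) are called embedded: their 10 kb held a median of 97.0 reads, of which a median of 14.9% lay under the summit.

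The position of the summit differed between these classes. This is a description that follows in part from the selection by width. Reads that are nearly alone in so narrow a peak must start within a few bases of each other. It lay within 2 bases of base 100, where a flat pile of a single read's width has it, in 57 of the 80 isolated peaks (71.3%) and in 92 of the 121 thinly covered ones (76.0%). Among embedded peaks it lay there in 74 of 1968 (3.76%). In wider inner peaks it lay at that base in 3.24%, but base 100 is in general not the middle of these broader peaks. In all, 223 of the 2169 narrow peaks (10.3%) had it there, and 30.6% of those at or above the list's median significance. A width of a single read therefore described the outline of these peaks, while in most of them the summit did not lie where reads from 1 start put it.

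**Figure D1:**
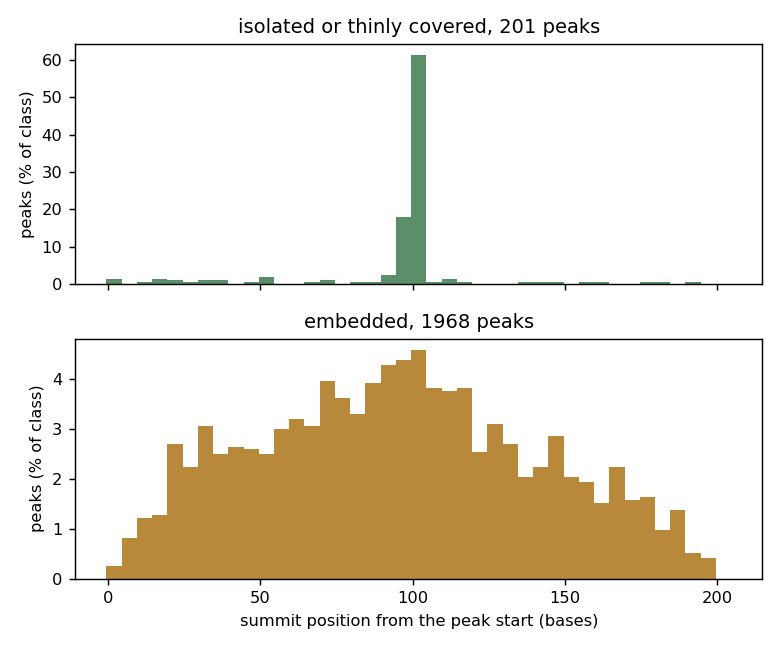
Position of the summit within the peak, in bases from its start, as the percentage of peaks per 5-base step, for the isolated or thinly covered narrow peaks and the 1968 embedded ones. The first group gathers at base 100, where 149 (74.1%) lie within 2 bases, and the second is spread over the whole width.

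Most of the deepest narrow peaks were isolated. Of the 12 with the most reads, 10 were isolated and 2 embedded. The deepest lay in ARHGAP39, a GTPase-activating protein, at chr8:144583246-144583445 on the minus strand. It held 5396 reads (95% Poisson interval 5253 to 5542) of 5494 in its 10 kb. The strand of this gene was not in the start windows used. In DNM3, a dynamin of neurons, the peak at chr1:171997383-171997582 held 4540 of 4541 reads, and in ZNF773, a zinc finger gene, the peak at chr19:57512864-57513064 held all 1927. Both lay on the minus strand, opposite to their genes. These 3 peaks together held 11863 of the 50080 reads under all narrow summits (23.7%). The next narrow peak had 253 reads, so the 3 stand far above the rest.

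KRT8, a keratin of simple epithelia, held that peak, at chr12:52900449-52900648. Its 253 reads were 5.03% of the 5025 in the 10 kb, with a fold of 2.50. FASN, fatty acid synthase, was alike: its peak at chr17:82086238-82086438 had 121 of 2260 reads and a fold of 2.64. Both lay in densely covered stretches, and their folds lay below the median of all narrow peaks.

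The remaining deep peaks had 99 to 163 reads and little beside them. CDKAL1, a tRNA-modifying enzyme, had 163 of 186 reads, and SLC11A2 had 161 of 207. SPOCK3, a brain proteoglycan, had all 123, and CNTNAP5, a neurexin-family protein of neurons, had 113 of 114. FRMPD3, which has FERM and PDZ domains, had 101 of 103, AMMECR1 had 100 of 115 and GNG7 had 99 of 106. Of these 7 peaks only that of CNTNAP5 lay opposite to its gene. The summit stood within 3 bases of base 100 in SPOCK3, CNTNAP5, FRMPD3 and GNG7, at base 1 in CDKAL1, at base 4 in SLC11A2 and at base 181 in AMMECR1, so that isolation did not always go with a flat pile.

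**Figure D2:**
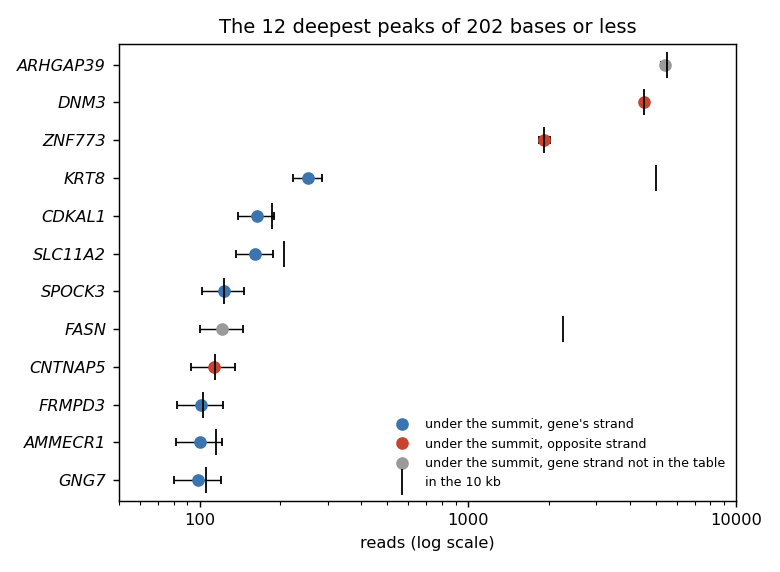
Reads under the summit (points, with 95% Poisson intervals) and in the 10 kb around it on the same strand (vertical ticks) for the 12 deepest narrow peaks, on a log scale. Point and tick nearly coincide in the 10 isolated peaks, while in KRT8 and FASN the 10 kb holds 5025 and 2260 reads against 253 and 121 under the summit.

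A fold set against the 10 kb cannot exceed 50, since 10 kb holds 50 stretches of 200 bases. The highest folds were 49.5 in DNM3, 48.8 in ZNF773, 48.7 in ARHGAP39, 35.8 in SPOCK3, 34.8 in CNTNAP5, 34.7 in CDKAL1 and 33.3 in FRMPD3. Every one of the 30 narrow peaks whose fold reached 20 was isolated. This follows largely from the arithmetic, since fold and isolation both set the summit against the same 10 kb.

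In 27 narrow peaks (1.24%, against 0.192% of the wider inner peaks) every read of the 10 kb lay under the summit. The 121 thinly covered peaks, whose 10 kb count is not known, are counted among the others, so no peak below about 12 reads could meet this. The share was 0.685% among peaks of exactly 200 bases and 9.38% among those at or above the list's median significance. The 27 had 12 to 1927 reads, with a median of 26, and in 26 of the 27 the summit stood within 2 bases of base 100. This position follows largely from the arithmetic, since in peaks this narrow such reads must all start within a few bases. Beside those in ZNF773 and SPOCK3, they included peaks of 63 reads in GPC3, a glypican, 57 in MYO16, an unconventional myosin, 43 in ATXN1, the ataxin of spinocerebellar ataxia, and 36 in LINGO2, a membrane protein of neurons. GRIN2A, an NMDA receptor subunit, had 23 reads and PPARA, a nuclear receptor of fatty acid metabolism, had 21. Of the 24 in genes of known strand, 15 lay opposite to the gene. These genes and others outside the 12 deepest and the lists below were named after their values were seen.

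**Figure D3:**
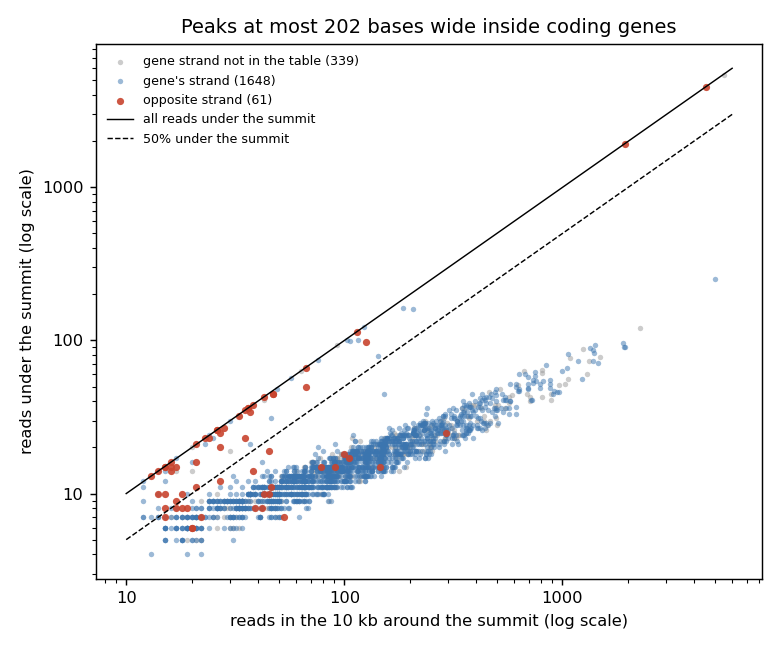
Reads under the summit against reads in the 10 kb around it, both on log scales, for the 2048 narrow peaks whose background was set by the 10 kb, coloured by the strand of the peak relative to its gene. The large band below the dashed line holds embedded peaks, and the line at the top holds peaks that own nearly all reads of their 10 kb, with many opposite-strand peaks (red) on it.

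Gene strand was not among the conditions that selected the peaks, and it was tested. Width can depend on how many reads the peak's strand holds, so width and strand may not be independent. Narrow and wider peaks were not matched for depth or for reads in the 10 kb, whose medians were 93.0 and 172. Of the 1808 narrow peaks in genes of known strand, 129 lay opposite to the gene (7.13%, 95% Wilson interval 6.04 to 8.41), against 40 of 6446 wider inner peaks (0.621%, 0.456 to 0.844). The difference was 6.51 percentage points and the odds ratio 12.3 (two-sided Fisher's exact test, p = 2.3e-52). Peaks are not replicates, so this p describes the list. The direction and the side of the threshold were the same in all 10 alternatives run, none of which matched the peaks for reads in the 10 kb.

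The opposite-strand peaks belonged largely to the isolated and thinly covered classes. These classes count reads on the peak's own strand, so reads of a gene's transcript count only for peaks on the gene's strand. Class and strand are therefore not independent, and their link is a description. Of the 71 isolated narrow peaks of known gene strand, 39 lay opposite (54.9%, 43.4 to 66.0), and of the 99 thinly covered ones 68 did (68.7%, 59.0 to 77.0). Of the 1638 embedded ones 22 did (1.34%, 0.889 to 2.03), against 12 of 6348 embedded wider peaks (0.189%, 0.108 to 0.330). Seen from the other side, 107 of the 129 opposite-strand narrow peaks were isolated or thinly covered.

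The share of opposite-strand peaks changed stepwise with the share of the 10 kb reads under the summit. This too is a description, since the 10 kb reads are those of the peak's own strand. It was 0.352% of 284 narrow peaks that held under 10%, 0.792% of 884 at 10 to 20%, 1.15% of 347 at 20 to 30% and 4.04% of 99 at 30 to 40%. It was 25.0% of 24 at 40 to 50%, 50% of 18 at 50 to 75% and 56.6% of 53 above that. The wider inner peaks had 0.226% in the lowest step, 5.56% of 54 at 50 to 75% and 53.8% of 26 above 75%. In the topmost step the intervals of narrow and wider peaks overlapped, 43.3 to 69 against 35.5 to 71.2.

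**Figure D4:**
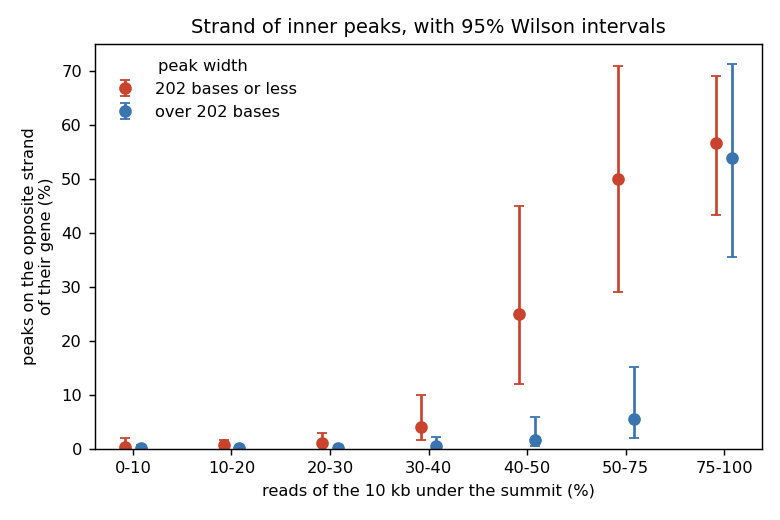
Percentage of peaks on the opposite strand of their gene, with 95% Wilson intervals, by the percentage of the 10 kb reads that lie under the summit, for narrow peaks and wider inner peaks. Both stay near 0 in the lower steps, and they reach 56.6% and 53.8% where the summit holds over 75% of the reads.

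The opposite-strand share did not rise or fall steadily with depth. It was 18.6% of 397 narrow peaks with 4 to 9 reads, 3.24% of 556 with 10 to 14 and 3.0% of 567 with 15 to 24. It was 5.81% of 241 with 25 to 49 and 12.8% of 47 with 50 or more. In the wider inner peaks it was 2.83% of 212, 1.55% of 904, 0.480% of 2083, 0.134% of 2236 and 0.692% of 1011 in these steps. The intervals of narrow and wider peaks overlapped only at 10 to 14 reads, 2.06 to 5.06 against 0.925 to 2.58. Of the 129 opposite-strand narrow peaks, 74 had 4 to 9 reads. After DNM3, ZNF773 and CNTNAP5, the deepest opposite-strand peaks lay in RUNX1, a transcription factor of blood cells (98 reads), in DHX37, an RNA helicase of ribosome assembly (66 reads), and in SLC12A9, a cation-chloride transporter family member (50 reads). In 76 of the 129 (58.9%) the same gene also had a peak on its own strand, and 48 (37.2%) were the only peak of their gene.

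Embedded narrow peaks opposite to their gene were few, and NR1I2 and BORCS5 had 2 each. NR1I2, the human gene of PXR, held no other narrow peak than these. One, at chr3:119809972-119810173, had 18 of 100 reads, and the other, at chr3:119815238-119815437, had 15 of 78. Each had a plus-strand peak whose centre lay 142 or 146 bases away. In BORCS5, a subunit of a lysosome-positioning complex, both had 6 reads.

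A peak centre on the opposite strand within 500 bases was found for 21 narrow peaks (0.968%), against 0.32% of the wider inner peaks. Of these 21, 18 lay opposite to their gene. In 3 genes both partners were narrow peaks. In EFHC2, a gene of ciliary microtubules, the partners had 9 and 9 reads, in GALNT13, a glycosyltransferase of mucin-type sugars, 7 and 7, and in SETD3, an actin histidine methyltransferase, 22 and 9. Their ranges overlapped by 35, 34 and 35 bases. The 3 pairs had nearly the same spacing, 166, 166 and 167 bases between centres.

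Overlap with start windows was described by strand, with no test. Of the 129 opposite-strand narrow peaks, 13 met a window (10.1%, 5.98 to 16.5), and of the 1679 on the gene's strand 22 did (1.31%, 0.867 to 1.98), against 3.75% of the wider inner peaks. In the wider inner peaks the intervals overlapped, with 2 of 40 opposite-strand peaks (5.0%, 1.38 to 16.5) and 240 of 6406 on the gene's strand (3.75%, 3.31 to 4.24). Among narrow peaks the overlap also followed the class: 7.04% of isolated, 7.07% of thinly covered and 1.40% of embedded peaks met a window, and strand and class were not separated here. Opposite-strand peaks in the window of the gene itself include TBL1XR1 and SLC37A1, whose sequences are given above, with centres 174 and 60 bases upstream. STK25, a kinase, had an opposite-strand narrow peak of 12 reads. It was centred 100 bases upstream of 1 start of the gene and 139 bases downstream of another. HNRNPF, a splicing regulator, had 1 of 7 reads centred 54 bases upstream. Of the 10 opposite-strand peaks in their own gene's window, 7 were counted as centred upstream. Those in FAM171A1 and IQSEC1 were centred 134 and 103 bases downstream. A start window reaches farther before the start than after it, so it favours upstream centres by construction.

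Narrow peaks lay in longer genes than the wider ones and farther from the next peak. Genes with a narrow peak numbered 1741 of the 16810 coding genes of at least 5000 bases (10.4%), and 3773 (22.4%) had a wider inner peak. Both kinds were present in 1000 genes. The genes of the narrow peaks had a median length of 80.4 kb, counted per peak, against 50.8 kb for wider ones, and the median distance to the next centre on the same strand was 13.9 kb against 5.12 kb. Along the gene the narrow peaks lay at a median of 56.4% of its length from the start, against 64.5%. Isolated peaks lay in still longer genes, with a median of 174 kb, and 42 of 80 (52.5%) were the only peak of their gene, against 221 of 1968 embedded ones (11.2%).

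In 1429 genes there was 1 narrow peak, and 10 genes had 5 or more. GMDS, an enzyme of GDP-fucose synthesis, had the most, 9 of 13 to 32 reads beside 10 wider ones. CEMIP, a hyaluronan-binding protein, had 6 of 56 to 90 reads beside 30 wider ones. AGAP1, an Arf GTPase-activating protein, had 5 of 28 to 73 reads, GTF2IRD1, a transcription factor, 5 of 13 to 32, and MYH14, a nonmuscle myosin heavy chain, 5 of 17 to 26. All narrow peaks of these 5 genes were embedded, and all 25 in the 4 genes of known strand lay on the gene's strand.

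Gene lists for cell types and pathways were set beside the shares of all coding genes of at least 5000 bases. These were 10.4% with a narrow and 22.4% with a wider inner peak. Gene length differs between the lists, and its part in the counts was not tested. Of 28 colon and goblet cell genes of at least 5000 bases, 9 (32.1%) had a narrow peak and 22 (78.6%) a wider one. Of the 12 narrow peaks of this list 0 were isolated or thinly covered, beside 9.27% of all narrow peaks. With so few peaks that count lies near the overall share, and a difference was not tested. Genes with a narrow peak included KRT8, VIL1, the microvillus protein villin (38 reads), and HNF4A, an intestinal and hepatic nuclear receptor (34 and 21 reads). Narrow peaks were in 0 of 19 hepatocyte genes, 0 of 18 fibroblast and endothelial genes and 0 of 22 germ cell genes. In the blood list 1 of 15 had one, RUNX3 with 5 reads, and in the striated muscle list 1 of 20, the calcium channel gene CACNA1S with 4 reads. Both were thinly covered.

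The neuronal list had more such peaks than the other lists of foreign cell types. Of its 30 genes 6 (20.0%) had a narrow peak, and all 6 had one that was isolated or thinly covered, against 1.14% of all coding genes of that length. These genes are long, with a median of 511 kb against 32.7 kb, and the part of length in the count was not tested. DNM3 had 4540 reads and GRIN2A had 23 of 23, both opposite to the gene. GRIN2B, another NMDA receptor subunit, had a peak of 8 reads opposite to the gene and 1 of 23 reads, embedded in 299, on its strand.

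Among 27 genes of drug metabolism and transport, a class that PXR is known to regulate, 2 (7.41%) had a narrow peak and 4 (14.8%) a wider one. All coding genes of that length had 10.4% and 22.4%. The list is small, these counts lie near those shares, and a difference was not tested. ABCC3, an exporter of bile acids and conjugates, had narrow peaks of 27 and 21 reads, and TXNRD1, a thioredoxin reductase, had 23 and 19 on its strand and 7 on the other. Of 46 nuclear receptors and cofactors 13 (28.3%) had a narrow and 23 (50%) a wider peak. In 4 (8.70%) a narrow one was isolated or thinly covered, against 1.14% of all coding genes of that length. The median length of the listed genes was 91.9 kb, against 32.7 kb for all such coding genes, and the part of length was not tested. HNF4A belongs to this list too, and PPARG, a receptor of fat cell formation and colon epithelium, had 28 reads.

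The lipid, glucose and cytoskeleton lists held 16, 7 and 34 narrow peaks, of which 0, 1 and 0 were isolated or thinly covered, beside 9.27% of all narrow peaks. Of 27 lipid and cholesterol genes 14 (51.9%) had a narrow and 15 (55.6%) a wider peak, beside 10.4% and 22.4% of all coding genes. Those with a narrow one include FASN and SCD, the stearoyl-CoA desaturase (54 reads). Of 22 glucose metabolism genes 6 (27.3%) had a narrow and 14 (63.6%) a wider peak. Narrow peaks had 30 reads in GPI, 29 in PKM and 28 in LDHB, which are enzymes of glycolysis and lactate conversion. Of 26 cytoskeleton and junction genes 13 (50%) had a narrow and 20 (76.9%) a wider peak. Of the narrow peaks, 4 lay in the dynein heavy chain gene DYNC1H1 with 40 to 60 reads. ACTN4, an actin crosslinker, had 52 reads. Median gene length was 43.7 kb in the lipid, 29.9 kb in the glucose and 106 kb in the cytoskeleton list, against 32.7 kb.

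Genes of RNA processing were counted in the same way, beside 22.4% of all coding genes with a wider and 10.4% with a narrow peak. Of 32 splicing genes 8 (25.0%) had a narrow and 29 (90.6%) a wider peak, with narrow peaks of 74 reads in HNRNPA2B1, 59 in SRRM2 and 29 in HNRNPM. Of 32 RNA decay genes 5 (15.6%) had a narrow and 15 (46.9%) a wider peak. SMG1, the kinase of nonsense-mediated decay, had 3 narrow peaks of 31, 27 and 22 reads, CNOT1, the scaffold of a deadenylase, had 23 and XRN2, a nuclear exonuclease, had 12. None of the narrow peaks of the lipid, cytoskeleton, splicing and RNA decay lists was isolated or thinly covered, beside 9.27% of all narrow peaks. The splicing and RNA decay lists held only 8 and 7 narrow peaks, so 0 lies near that share there. A difference was not tested.

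**Figure D5:**
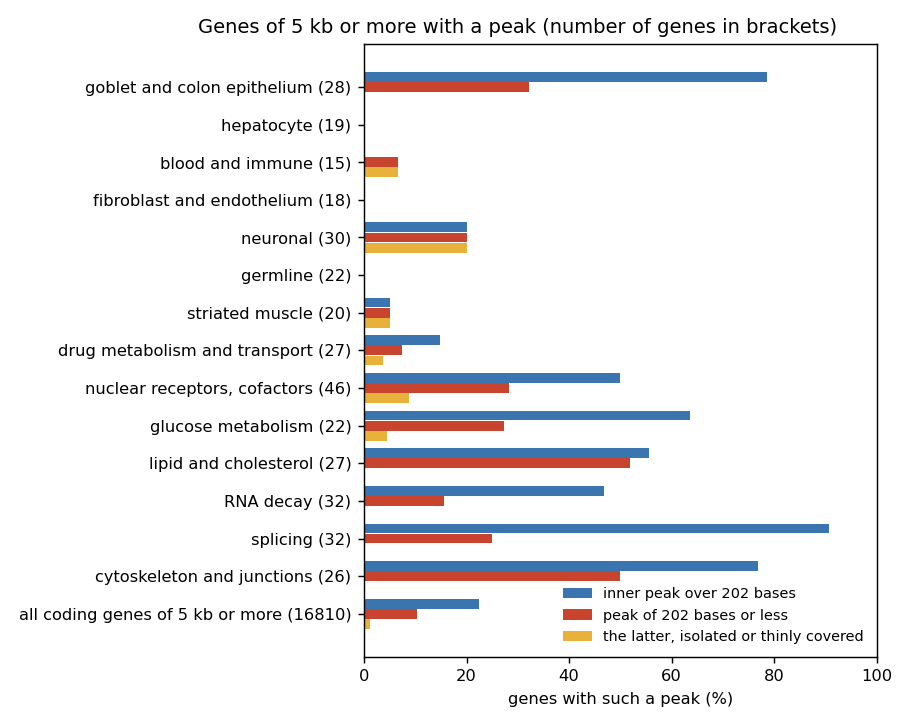
Percentage of the genes of at least 5 kb in each list that hold a wider inner peak, a narrow peak, or a narrow peak that is isolated or thinly covered, with the number of such genes in brackets. The neuronal list has 20.0% in all 3 measures, and the splicing list has 90.6%, 25.0% and none.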

How the data were processed

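The authors trimmed reads with cutadapt, aligned them with BWA to hg38 and called peaks with MACS2, per the submitters' processing notes, which name no version or setting. The deposited list gives each peak a score, a fold (a ratio), −log10 p and −log10 q, all the authors' values. Peaks were called on each strand apart, as the deposited names show.

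Reads k and background b under each summit were solved from fold = (k + 1)/(b + 1) and the Poisson p, which succeeded in 21028 of 21031 peaks and in all 2169 narrow ones. 5 of these had a second solution, and the one whose 10 kb count was whole was kept. On 2000 simulated peaks the procedure recovered 100.0%. Those peaks were made with the same formulas, so this checks the arithmetic and not whether the deposited values follow them. Library depth is not known from the list.

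Genes came from the RefSeq table of GRCh38.p14, and gene strand from RefSeq start windows, which matched 1453 of the 1741 genes. Exons were not used here. Fisher's exact test compared strand, shares have 95% Wilson and reads 95% exact Poisson intervals. PCR copies are not independent molecules, so intervals cover counting error only. The genes named are the 12 deepest narrow peaks, the 8 of highest fold, the 5 genes with most, up to 3 per list and the 3 deepest at 202 and at 203 bases, with others marked, and a few genes under this rule are not reported here. The regions, lists and tests were chosen with earlier results of these data known. Alternatives varied width limit, gene length, distance from ends, significance, reads and the source of strand. Python 3.11.15, SciPy 1.17.1 and pandas 2.3.3 were used.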

Additional observations from a re-analysis of the deposited data

How the results depend on the processing

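The alternatives gave 110 values of 13 results. Only the 10 of the strand test had a direction that could reverse, and 0 of them did. For 87 the test kept its direction and side of the threshold, the share or median stayed within its counting interval, or the count within 1.5 times, and 23 moved beyond that. The strand difference held in all 10 of its alternatives, at 3.35 to 19.4 percentage points, of which 4 were chosen after seeing the data, as were those for the classes of isolation and most for near opposite-strand peaks. With peaks at or above the list's median significance, the number of narrow peaks fell to 288, the share on the gene's strand was 79.7%, the share isolated or thinly covered 31.6% and the share with an opposite-strand peak near 2.43%. With 10 or more reads these shares were 96.1%, 5.22% and 0.534%. A width limit of 210 bases gave 94.0% on the gene's strand and 8.05% isolated or thinly covered, and strand taken from the gene's other, wider inner peaks gave 95.1%. These filters leave different peaks, so each value describes its own set. The thinly covered peaks rest on 4 to 13 reads each. No paired analysis was possible, because the precipitate has 1 peak list and no values for each replicate.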

Other observations

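Among the inner peaks of a chromosome, the share of narrow ones ran from 14.6% on chromosome 19 (118 of 806, 95% Wilson interval 12.4 to 17.2) to 29.2% on chromosome 18 (40 of 137, 22.2 to 37.3). The X chromosome had 28.3% (64 of 226, 22.8 to 34.5). Of its 64 narrow peaks 11 (17.2%) were isolated or thinly covered, among them those in FRMPD3, AMMECR1 and GPC3, beside 9.27% of all narrow peaks. The same share was 20% on chromosome 18, 16.7% on chromosome 21, 15.8% on chromosome 11 and lowest on chromosome 20, at 1.85%. Gene length and expression differ between chromosomes, and their part in these shares was not tested.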
